A study of Homo sapiens with 24 samples.

Results

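The 9 protein-coding genes GPR160, CPNE5, HPGD, METAP1D, MLC1, PTP4A3, SLPI, ARHGAP9 and BSCL2 were among the largest single-gene rises with LPA in the human multiple myeloma cell line ARP1. They were found by symbol in a table of 19158 genes, and each symbol matched 1 row. They were chosen by their measured fold change of LPA over PBS. Their differences between the treatments are therefore given as a description, with no test. All 9 passed the filter on low values, which kept the 16274 genes that reached 1 FPM in 3 or more libraries.

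ARP1 is a line of malignant plasma cells, the antibody-secreting end of the B lineage. The cells were grown for 24 h with PBS, the vehicle, or with LPA at a dose that the labels write as 4 mg/mL, a unit that could not be checked. The abbreviation LPA, not spelled out in the labels, is read here as lysophosphatidic acid, a signalling phospholipid with receptors on the cell surface. RNA was sequenced from 3 libraries per treatment, each read in 4 lanes, so n = 3 libraries per group. All libraries come from this 1 line, and no label names separate cultures. The p-values thus reflect only how these libraries vary, which may be technical.

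Levels are in FPM, fragment counts scaled to a common library size. The libraries held between 5498910 and 8740992 reads, fewer in each PBS library than in each LPA library, so 1 read was worth between 0.114 and 0.182 FPM. PBS 2 and LPA 3 stood apart from the other libraries of their groups. Their chi-square per degree of freedom against these was 3.66 and 3.74 for PBS 2 and 2.39 and 2.81 for LPA 3, against 1.33 and 1.35 between the other libraries of a group. On the log2(FPM + 1) scale used for all fold changes the median tested gene lay 0.13 higher in LPA, a shift that every fold change on FPM includes. Rescaled FPM are FPM divided by size factors (median of ratios) that centre the median gene. The plasma cell label was checked on 12 marker genes, all of which reached 1 FPM, SDC1 and JCHAIN among them. Their summed level ran from 1767 to 1934 FPM in the PBS libraries and from 2819 to 3006 FPM in the LPA libraries. JCHAIN was the largest part of the sum, with means of 754 FPM with PBS and 1379 FPM with LPA. CD38, SLAMF7, FCRL5 and DERL3 did not differ at a limma adjusted p of 0.05, while the other markers were higher with LPA. The part of this difference in the results was not tested. The summed level of 6 B cell markers listed of 8 ran from 23.1 to 28.4 FPM with PBS and from 23.5 to 24.3 FPM with LPA. For 6 epithelial markers, of which 2 were listed, it lay between 13 and 15 FPM with PBS and between 12.2 and 14.6 FPM with LPA. The 5 astrocyte markers, 4 of them listed, summed to between 20.4 and 25.5 FPM with PBS and between 19.1 and 20.4 FPM with LPA. Those of T cells, myeloid and erythroid cells summed to at most 7.67, 7.11 and 7.62 FPM in any library. The 6 stromal markers, 5 of them listed, summed to between 20.8 and 30.0 FPM with PBS and between 18.5 and 23.4 FPM with LPA. Of these the collagen gene COL1A1 fell from 14.6 to 10.2 FPM (limma adjusted p = 0.0105), and its part in the results was not tested. The B cell marker MS4A1, the epithelial markers EPCAM and KRT19 and the astrocyte water channel AQP4 were not listed.

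The 9 genes do not form 1 pathway. GPR160 and MLC1 encode membrane-spanning proteins. CPNE5, HPGD and BSCL2 encode proteins that bind, break down or store lipids or lipid-derived signals. PTP4A3 encodes a phosphatase and ARHGAP9 a GTPase-activating protein, and METAP1D and SLPI act on or against protein cleavage. In the B lineage PTP4A3 has been studied in myeloma cells, where it is known to respond to interleukin-6 and to bear on migration. ARHGAP9 is known as a gene of blood cells, whereas MLC1 is best known from astrocytes and SLPI from the epithelia of mucosal surfaces.

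Promoter windows of RefSeq, build GRCh38.p14, ran from 250 bases before to 50 after an annotated start. They were used for 6 of the 9 genes, with 12 windows in all. None was given for SLPI and ARHGAP9, and PTP4A3 was left out of the search. Letters of 9 motifs were searched on both strands. The E-box CACGTG, the core bound by MYC and related factors, was in the window of METAP1D and in 1 of 2 windows of HPGD, and in 7.26% of all 35116 windows. In METAP1D its first base lies 1 base before the annotated start (position -1), and in HPGD 40 bases after it. AP-1 (TGANTCA, 7.71% of windows), CRE (TGACGTCA, 1.85%) and ISRE (GAAA, any 2 bases, then GAAA, 3.57%) were in none of the 12. GGAATG, the core of TEAD sites (14%), and TATAAA (11.5%) were in 1 BSCL2 window. CCAAT (34.6%) was in 1 window each of CPNE5 and HPGD, GGGCGG (45%) in 6 windows of 5 genes, all but GPR160, and an NF-kappaB pattern of GGGA, any 4 bases, then CC (25.6%), in 4 windows of BSCL2, CPNE5 and HPGD. A match is a description of letters and not a site. The windows of METAP1D (chr2:171999703-172000002, plus strand) and HPGD (chr4:174522439-174522738, minus strand) are printed because they hold the E-box, in capitals, and that of GPR160 (chr3:170037745-170038044, plus strand) as the most abundant member, with none of the 9 motifs.
METAP1D: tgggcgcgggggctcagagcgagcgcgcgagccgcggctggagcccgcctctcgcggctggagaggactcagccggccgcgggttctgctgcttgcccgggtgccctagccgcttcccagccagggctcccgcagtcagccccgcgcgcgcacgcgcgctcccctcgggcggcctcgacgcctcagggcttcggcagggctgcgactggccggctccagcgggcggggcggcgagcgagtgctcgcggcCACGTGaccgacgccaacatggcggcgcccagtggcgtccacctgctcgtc
HPGD: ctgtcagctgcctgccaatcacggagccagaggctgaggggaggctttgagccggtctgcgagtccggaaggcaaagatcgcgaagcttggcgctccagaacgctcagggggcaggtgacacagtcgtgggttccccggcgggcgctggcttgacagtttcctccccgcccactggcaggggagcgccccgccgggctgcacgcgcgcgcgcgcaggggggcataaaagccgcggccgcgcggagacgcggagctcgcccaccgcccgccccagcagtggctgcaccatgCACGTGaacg
GPR160: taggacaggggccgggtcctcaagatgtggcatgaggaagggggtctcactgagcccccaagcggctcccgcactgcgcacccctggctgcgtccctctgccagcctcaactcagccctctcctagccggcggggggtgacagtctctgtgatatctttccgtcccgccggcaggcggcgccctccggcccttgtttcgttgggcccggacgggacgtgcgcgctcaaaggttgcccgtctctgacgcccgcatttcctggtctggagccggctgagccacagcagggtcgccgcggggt

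In each of the 9 genes the 3 LPA libraries lay above the 3 PBS libraries. That held for 31.4% of all tested genes, and the choice of members required it, so nothing is read from the count. The ratio of mean FPM ran from 1.98 for GPR160 to 2.33 for HPGD. A ratio at least as large as that of GPR160, the lowest of the 9, was found in 0.774% of tested genes, and in 23 of the 12079 tested genes that reached 5 FPM with LPA. The lowest LPA library exceeded the highest PBS library by between 1.46 times for MLC1 and 2.08 times for ARHGAP9.

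**Figure D1:**
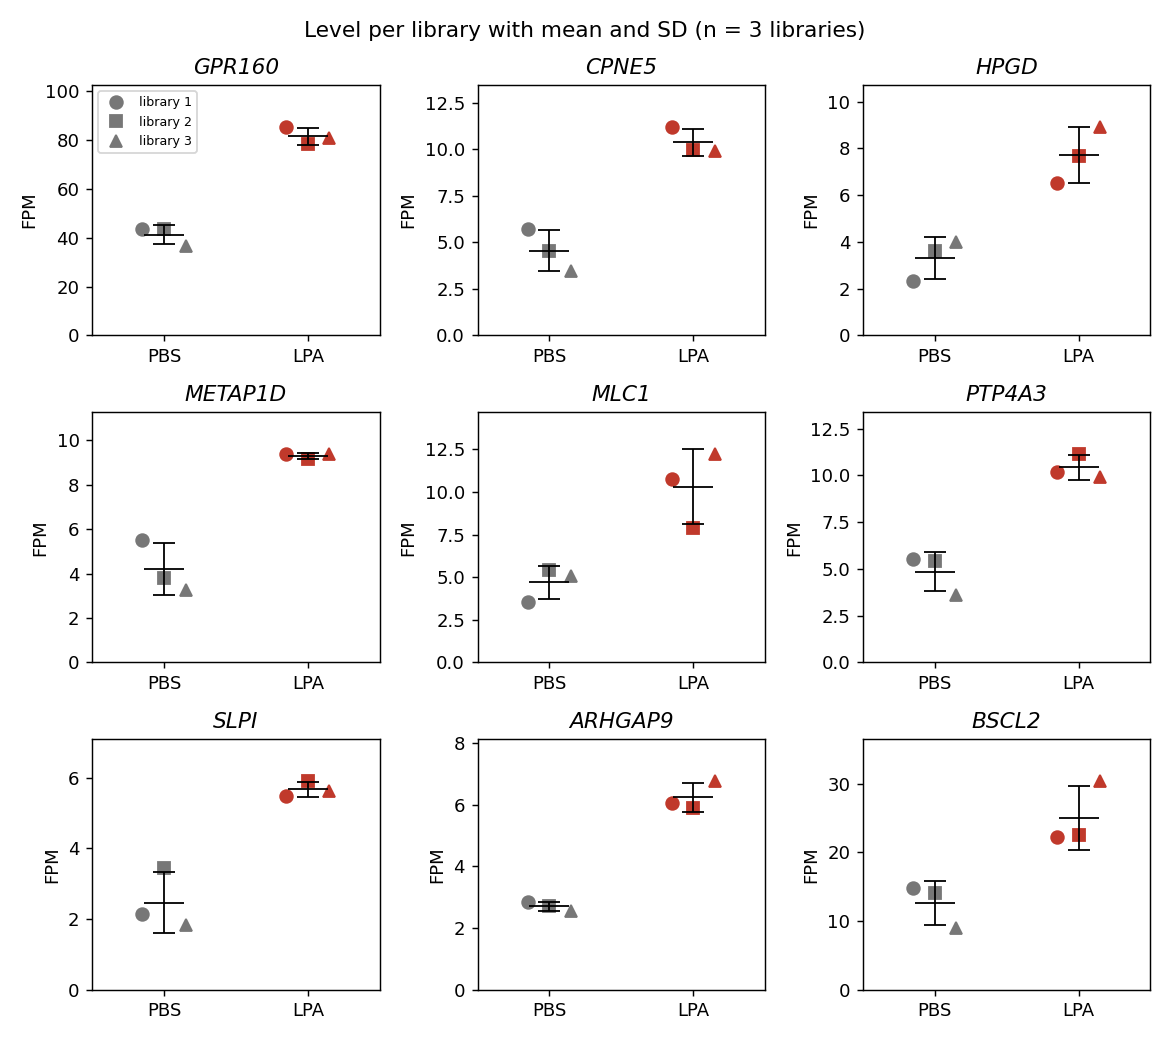
FPM (vertical axes, each starting at 0) in the 3 PBS libraries (grey) and the 3 LPA libraries (red) for each of the 9 genes. Symbols mark the library number and the black lines the mean and SD over n = 3 libraries; the groups do not overlap for any of the genes, which the choice of members required.

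Most of these transcripts were scarce. With PBS, GPR160 lay at the 74.3rd percentile of the tested genes by FPM and BSCL2 at the 43.5th, while the other 7 lay between the 15.7th for SLPI and the 26.0th for PTP4A3. Divided by the summed exon length of the gene, the level with PBS was highest for GPR160, at 9.24 FPM per kb, then SLPI at 4.13 and BSCL2 at 3.18 FPM per kb. PTP4A3 followed at 1.69, MLC1 at 1.09, METAP1D at 0.866, CPNE5 at 0.720, HPGD at 0.598 and ARHGAP9 at 0.527 FPM per kb. SLPI thus moved from the lowest of the 9 in FPM to the second highest per kb, since its exons cover only 0.596 kb. With LPA the order per kb was the same, from 18.3 FPM per kb for GPR160 and 9.51 for SLPI down to 1.22 for ARHGAP9.

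Ratios scatter more among scarce genes, and 7 of the 9 genes lay between 2 and 6 FPM with PBS. In that range a ratio at least as large as that of GPR160 was found in 0.681% of 2792 tested genes. Between 6 and 20 FPM, where BSCL2 lay, it was found in 0.145% of 4134 genes. Between 20 and 100 FPM it was found in GPR160 alone among 5984 genes, and the ratio of GPR160 is itself the threshold. SDC1 in that range had 1.95. Above 100 FPM there was 0 among 1358. Under 2 FPM, where none of the 9 lay, the share was 4.99% of 2006 genes. Since the members were picked for their ratios, these shares describe the ranges and are no test of the members.

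**Figure D2:**
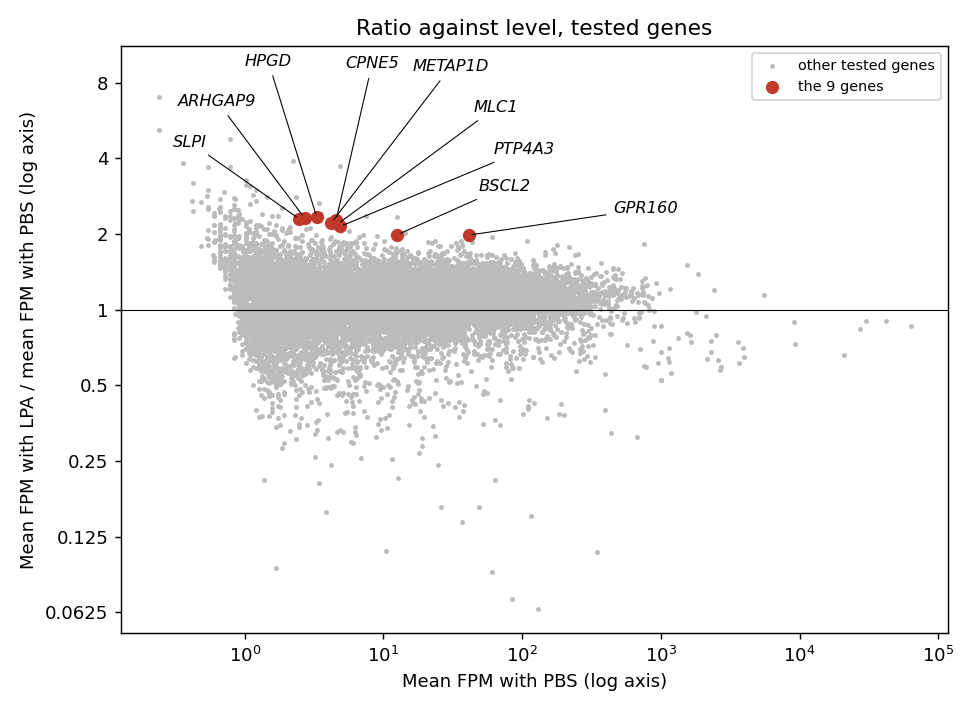
Mean FPM with LPA divided by mean FPM with PBS (vertical, log axis) against mean FPM with PBS (horizontal, log axis) for the 16274 tested genes, with the 9 genes in red. 7 of them lie between 2 and 6 FPM with PBS; BSCL2 lies at 12.6 FPM and GPR160 at 41.2 FPM.

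GPR160 encodes a G protein-coupled receptor that was long an orphan, and was the most abundant of the 9. Its level was 43.4, 43.4 and 36.7 FPM in PBS 1 to 3 and 85.5, 78.4 and 80.7 FPM in LPA 1 to 3. Every LPA library was at least 1.81 times the highest PBS library. The means were 41.2 ± 3.89 and 81.5 ± 3.60 FPM (SD, n = 3), a ratio of 1.98 and a log2 fold change of 0.97 (SE 0.08). With 686 reads in the PBS group and 1891 in the LPA group, the ratio of pooled reads per total was 1.98, with an exact 95% interval of 1.82 to 2.17 that covers counting error only. It was also the gene with the narrowest interval. Across 12 lanes per treatment the values ran from 30.1 to 52.1 FPM with PBS, median 41.4, and from 74.0 to 91.3 FPM with LPA, median 81.0, so no lane of 1 treatment reached the other.

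Of 17 other G protein-coupled receptors of lymphoid and lipid signalling, listed with earlier results of these data known, 13 were tested and 1 rose. This was S1PR1, the sphingosine-1-phosphate receptor that guides lymphocyte exit from tissues, from 20.6 ± 1.87 to 30.7 ± 0.397 FPM (limma adjusted p = 4.99e-05). S1PR2, at 33.0 and 38.7 FPM, and P2RY10, at 9.55 and 12.1 FPM, did not pass. The list median was 0.16 on the log2 scale, beside 0.13 for all tested genes, of which 22.5% were called higher and 4.49% lower. On GENCODE 29, chromosome 3, GPR160 overlaps no listed gene. Its neighbours SEC62 and PHC3 were at 88.4 and 109.7 FPM and at 247 and 274 FPM, of which SEC62 passed (limma adjusted p = 0.000833), though not by DESeq2 (adjusted p = 0.182).

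MLC1, on chromosome 22, encodes a membrane protein of astrocyte end-feet whose mutation causes a leukoencephalopathy with cysts. Its level was 3.56, 5.42 and 5.10 FPM in PBS 1 to 3 and 10.7, 7.90 and 12.2 FPM in LPA 1 to 3. LPA 2 was the lowest of the LPA libraries and lay 1.46 times above PBS 2, the smallest gap of the 9. The means were 4.69 ± 0.993 and 10.3 ± 2.20 FPM, a ratio of 2.19. The pooled ratio was 2.20 with an interval of 1.69 to 2.87, from 78 and 238 reads. Single lanes ran from 2.14 to 7.15 FPM with PBS and from 3.79 to 15.4 FPM with LPA, and 11 of 12 LPA lanes lay above every PBS lane.

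HEPACAM, the adhesion partner of MLC1 in glia, was not listed. Of 15 genes of MLC1's partners and of cell volume control, 11 were tested, 7 rose and 0 fell, with a list median of 0.30. The 7 were 63.6% of those tested, beside 22.5% of all tested genes. LRRC8C, a subunit of the volume-regulated anion channel, rose from 26.8 to 36.5 FPM (limma adjusted p = 0.000778). LRRC8D, another subunit of that channel, went from 31.8 to 42.2 FPM and also passed. On FPM rescaled to centre the median gene, 3 of the 7 still passed, LRRC8C and LRRC8D among them, beside 9.62% of all tested genes called higher. By DESeq2 on recovered reads neither LRRC8C nor LRRC8D passed (adjusted p = 0.121 and 0.164). Most of the 7 did not pass there, LRRC8A, LRRC8B and CAV1 among them (adjusted p = 0.566, 0.241 and 0.485). The nearest tested genes on either side of MLC1, PIM3 and TRABD, were at 27.8 and 27.6 FPM and at 12.6 and 12.6 FPM. They lie 95.3 and 100 kb away.

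CPNE5 encodes a copine, a protein with paired C2 domains that binds membrane phospholipid in the presence of calcium. Its level was 5.69, 4.52 and 3.46 FPM in PBS 1 to 3 and 11.2, 9.95 and 9.93 FPM in LPA 1 to 3. All LPA libraries lay near 10 or above it, and every PBS library was below 6. The means were 4.56 ± 1.12 and 10.4 ± 0.737 FPM, a ratio of 2.27, and the log2 fold change of 1.05 (SE 0.17) was the highest of the 9. The LPA SD was 7.11% of the mean, against a counting error of 11.2%, so this spread understates the error. The pooled ratio was 2.28, interval 1.76 to 2.99, from 76 and 241 reads. Lanes ran from 2.15 to 8.54 FPM and from 6.40 to 13.7 FPM, with 10 of 12 LPA lanes above every PBS lane.

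The other copines were mixed. Of 8, 6 were tested, 2 fell and 1 was called higher, with a list median of -0.24. CPNE2 fell from 13.1 ± 1.10 to 7.53 ± 1.39 FPM (limma adjusted p = 0.000178) and CPNE1 from 75.5 ± 2.07 to 61.8 ± 3.95 FPM (limma adjusted p = 0.00424), and both also passed on rescaled FPM. CPNE3 went from 85.6 to 99.9 FPM, a call that was lost on rescaled FPM and also in 4 of the 6 fits that left out a library, with log2 fold changes of 0.17 (PBS 1 left out), 0.20 (PBS 3), 0.23 (LPA 1) and 0.22 (LPA 3). Next to CPNE5 on chromosome 6, PPIL1, a spliceosomal isomerase, rose from 20.9 to 30.7 FPM (limma adjusted p = 0.000145), while CDKN1A was at 16.9 and 15.2 FPM and did not pass.

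HPGD, on chromosome 4, encodes the dehydrogenase that inactivates prostaglandin E2 and other prostaglandins. Its level was 2.32, 3.61 and 3.99 FPM in PBS 1 to 3 and 6.52, 7.66 and 8.93 FPM in LPA 1 to 3. PBS 1 was the lowest here, and LPA 3 the highest. The means were 3.31 ± 0.878 and 7.70 ± 1.2 FPM, a ratio of 2.33, the largest of the 9. It rested on 55 and 176 reads, with a pooled ratio of 2.30 and an interval of 1.69 to 3.18. Lanes ran from 1.41 to 6.48 FPM with PBS and from 5.82 to 13.9 FPM with LPA. Of the LPA lanes 7 of 12 lay above every PBS lane, and 11 of 12 PBS lanes lay below every LPA lane.

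PTGS2, the inducible cyclooxygenase, and the prostaglandin transporter SLCO2A1 were not listed. Of 25 genes of prostaglandin and leukotriene synthesis, transport and reception 15 were tested, 3 rose and 0 fell, with a list median of 0.18. The thromboxane synthase TBXAS1 rose from 1.68 ± 0.735 to 3.66 ± 0.279 FPM (limma adjusted p = 0.00432), the co-chaperone PTGES3, also known as a prostaglandin E synthase, from 226 to 278 FPM (limma adjusted p = 8.44e-05) and the leukotriene A4 hydrolase LTA4H from 71.3 to 87.3 FPM (limma adjusted p = 0.00332). On rescaled FPM LTA4H did not pass, and by DESeq2 none of the 3 did (adjusted p = 0.143 for TBXAS1, 0.0746 for PTGES3 and 0.353 for LTA4H). The nearest tested neighbours of HPGD were CEP44, at 21.8 and 26.9 FPM, whose call was lost on rescaled FPM and when PBS 1, PBS 3, LPA 1 or LPA 3 was left out (log2 fold changes 0.25, 0.26, 0.33 and 0.23), and GLRA3, at 1.98 and 2.70 FPM. CEP44 and GLRA3 lie 157 and 114 kb from HPGD.

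BSCL2, on chromosome 11, encodes seipin, the endoplasmic reticulum protein at sites of lipid droplet formation whose loss causes congenital lipodystrophy. Its level was 14.8, 14.1 and 8.92 FPM in PBS 1 to 3 and 22.2, 22.6 and 30.4 FPM in LPA 1 to 3. PBS 3 was low and LPA 3 high against their groups. The means were 12.6 ± 3.2 and 25 ± 4.63 FPM, a ratio of 1.99, and the pooled ratio was 1.96, interval 1.67 to 2.31, from 210 and 573 reads. Without PBS 3 the log2 fold change of 0.95 became 0.74. Lanes ran from 5.76 to 21.4 FPM and from 19.7 to 33.6 FPM, with 9 of 12 LPA lanes above every PBS lane. The value of BSCL2 is uncertain in another way: the read-through gene HNRNPUL2-BSCL2 overlaps it on the same strand in GENCODE 29 and was listed at 71.8 ± 1.40 and 71.0 ± 9.06 FPM, and how reads were divided between these genes is not given. HNRNPUL2, the next gene on that strand, rose from 59.9 to 79.2 FPM (limma adjusted p = 9.49e-05). GNG3, which overlaps BSCL2 on the other strand, was at 1.44 and 1.74 FPM, and LRRN4CL, the nearest gene on the other side, at 0.785 and 1.13 FPM. Neither passed.

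Of 28 genes of lipid droplets and of phosphatidic acid and triglyceride synthesis, 25 were tested, 5 rose and 0 fell, with a list median of 0.22. GPAM, the mitochondrial acyltransferase that makes the lysophosphatidic acid of the glycerolipid pathway, rose from 19.9 ± 1.94 to 30.4 ± 0.735 FPM (limma adjusted p = 2.24e-05). The droplet coat protein PLIN3 rose from 54.2 to 69.9 FPM (adjusted p = 0.000875) and the triglyceride enzyme DGAT2 from 18.1 to 24.7 FPM (adjusted p = 0.00362). On rescaled FPM the list had 2 higher, GPAM and PLIN3, and 4 lower members. By DESeq2 PLIN3 and DGAT2 did not pass (adjusted p = 0.181 and 0.248). FITM2 and AGPAT3 did not pass by DESeq2 either (adjusted p = 0.540 and 0.646), so only GPAM of the 5 kept its call there. LDAF1, the partner of seipin in droplet assembly, was at 3.55 and 4.07 FPM and did not pass.

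PTP4A3, on chromosome 8, encodes PRL-3, a prenylated phosphatase that binds the CNNM magnesium transport proteins. Its level was 5.53, 5.43 and 3.63 FPM in PBS 1 to 3 and 10.2, 11.2 and 9.93 FPM in LPA 1 to 3. PBS 3 was the low library, and all LPA libraries were at least 1.80 times the highest PBS library. The means were 4.86 ± 1.07 and 10.4 ± 0.644 FPM, a ratio of 2.14, with a pooled ratio of 2.14 and an interval of 1.66 to 2.79 from 81 and 241 reads. The LPA SD was 6.18% of the mean, against a counting error of 11.2%, so this spread understates the error. Together with GPR160, PTP4A3 was the gene whose lanes did not overlap, at 2.18 to 6.57 FPM with PBS and 6.91 to 15.6 FPM with LPA.

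The paralogs PTP4A1 and PTP4A2, singled out after their values were seen, were at 32.1 ± 6.72 and 40.8 ± 4.20 FPM and at 126 ± 5.72 and 143 ± 4.85 FPM. Their calls (limma adjusted p = 0.0175 and 0.0321) were lost on rescaled FPM and when PBS 1, PBS 3, LPA 1 or LPA 3 was left out, with log2 fold changes between 0.25 and 0.38 for PTP4A1 and between 0.16 and 0.19 for PTP4A2. PTP4A2 also missed the threshold with the replicate block, at 0.18. The 3 genes are similar in sequence, and the rule for reads that match several genes is not given. Of 14 genes of this family, its partners and magnesium transport, 13 were tested, 7 rose and 0 fell, with a list median of 0.21. Those called higher were 53.8% of the tested genes of this list, beside 22.5% of all tested genes. On rescaled FPM 2 of the list were higher and 1, SLC41A2, was lower. The 2 were magnesium-linked membrane proteins, MAGT1, from 115 to 153 FPM (limma adjusted p = 3.20e-06), and SLC41A1, from 43.2 to 55.5 FPM (limma adjusted p = 0.00202). MRS2, the mitochondrial magnesium channel, went from 32.6 to 40.9 FPM, and its call was lost on rescaled FPM, without PBS 3 at 0.24 and without LPA 3 at 0.26. By DESeq2 SLC41A1 and MRS2 did not pass (adjusted p = 0.210 and 0.415). PTP4A1, PTP4A2, CNNM2 and SLC41A3 did not pass by DESeq2 either (adjusted p = 0.394, 0.841, 0.554 and 0.436). Of the 7 called higher, only MAGT1 kept its call there. The nearest tested neighbours of PTP4A3 were SLC45A4, at 2.11 and 2.03 FPM, and LINC00051, at 0.659 and 1.29 FPM, and neither passed. They lie 83.7 and 766 kb away.

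ARHGAP9, on chromosome 12, encodes a GTPase-activating protein. Its level was 2.85, 2.71 and 2.54 FPM in PBS 1 to 3 and 6.06, 5.91 and 6.78 FPM in LPA 1 to 3. These were the tightest PBS values and the widest gap of the 9, with every LPA library at least 2.08 times the highest PBS library. The means were 2.70 ± 0.151 and 6.25 ± 0.464 FPM, a ratio of 2.31, from 45 and 144 reads, and the pooled ratio was 2.30 with an interval of 1.64 to 3.29. The SD of the PBS libraries was 5.59% of their mean, whereas counting error at this depth is 25.8%, so the spread over 3 libraries understates the error here. In single lanes the gene ran from 0 to 5.07 FPM with PBS and from 2.28 to 7.80 FPM with LPA. It was the only 1 of the 9 with a lane at 0 reads, and 10 of 12 LPA lanes lay above every PBS lane.

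On the other strand ARHGAP9 overlaps MARS1, the methionyl-tRNA synthetase, at 262 ± 6.17 and 280 ± 11.8 FPM, and GLI1, at 2.82 and 2.76 FPM. Neither passed, and whether the counting used strand is not given. The nearest genes that do not overlap it both fell: INHBE, an activin subunit, from 45.2 to 30.1 FPM (limma adjusted p = 3.47e-06) and DDIT3, the stress transcription factor CHOP, from 27.4 to 19.9 FPM (adjusted p = 0.00113).

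METAP1D encodes the mitochondrial methionine aminopeptidase, which trims the first methionine from proteins made in mitochondria. Its level was 5.53, 3.81 and 3.27 FPM in PBS 1 to 3 and 9.39, 9.14 and 9.37 FPM in LPA 1 to 3. The LPA libraries were nearly equal, while PBS 1 stood above the other PBS libraries. The means were 4.20 ± 1.18 and 9.30 ± 0.137 FPM, a ratio of 2.21. The LPA SD was 1.47% of the mean, against a counting error of 11.8%. With 70 and 215 reads the pooled ratio was 2.21, interval 1.68 to 2.94. Lanes ran from 1.43 to 7.90 FPM and from 6.91 to 11.6 FPM, with 10 of 12 LPA lanes above every PBS lane. On chromosome 2 the gene overlaps SLC25A12, a mitochondrial aspartate-glutamate carrier on the other strand, at 27.6 ± 3.79 and 34.2 ± 4.75 FPM. That gene's call (limma adjusted p = 0.0297) was lost on rescaled FPM and without PBS 1, PBS 3 or LPA 3, with log2 fold changes of 0.24, 0.25 and 0.19. HAT1 and DLX2, the nearest tested genes that do not overlap METAP1D, were at 38.6 and 45.2 FPM and at 2.16 and 1.44 FPM, and neither passed.

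Of 18 genes of N-terminal protein processing, all of them tested, 7 rose and 0 fell, with a list median of 0.18 and 4 higher on rescaled FPM. The 7 were 38.9% of the list, beside 22.5% of all tested genes. XPNPEP3, a mitochondrial aminopeptidase, rose from 51.7 ± 5.11 to 69.2 ± 3.64 FPM (limma adjusted p = 0.000119). NAA15 rose from 175 to 216 FPM and NAA50 from 123 to 152 FPM, both parts of N-terminal acetyltransferases (limma adjusted p = 0.000193 and 0.000273). The cytosolic counterparts METAP1 and METAP2, singled out after their values were seen, were at 30.6 and 40.2 FPM and at 67.0 and 79.3 FPM and passed (limma adjusted p = 0.00173 and 0.0143). By DESeq2 NAA15, NAA50, METAP1 and METAP2 did not pass (adjusted p = 0.0987, 0.130, 0.204 and 0.607). NAA20 and NAA30 did not pass by DESeq2 either (adjusted p = 0.486 and 0.553), so only XPNPEP3 of the 7 kept its call there. The call of METAP2 was also lost on rescaled FPM, without PBS 1 at 0.21 and without LPA 1 at 0.22.

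SLPI, on chromosome 20, encodes a secreted inhibitor of neutrophil elastase and other serine proteases, built of WAP domains. Its level was 2.13, 3.44 and 1.82 FPM in PBS 1 to 3 and 5.48, 5.90 and 5.62 FPM in LPA 1 to 3. PBS 2 was the highest PBS library and the LPA libraries were close together. The LPA SD was 3.78% of the mean, against a counting error of 15.1%, so this spread understates the error. The means were 2.46 ± 0.859 and 5.67 ± 0.214 FPM, a ratio of 2.30. With 41 and 131 reads this was the gene with the fewest reads of the 9, and the interval of its pooled ratio of 2.30 was the widest, at 1.61 to 3.35. Lanes ran from 1.42 to 3.65 FPM with PBS and from 2.71 to 9.67 FPM with LPA, and 10 of 12 LPA lanes lay above every PBS lane.

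ELANE and CTSG, the neutrophil proteases that SLPI blocks, and PI3, the related inhibitor elafin, were not listed. A list of 20 genes held WAP proteins, their protease targets, other protease inhibitors and further related genes such as SORT1, GRN, ANXA2 and PLSCR1. Of the 20, 12 were tested, 2 rose and 0 fell, with a list median of 0.13. SORT1, the receptor that takes up progranulin, rose from 146 ± 2.46 to 206 ± 10.6 FPM (limma adjusted p = 1.94e-08) and SERPINB9, the granzyme B inhibitor, from 5.69 ± 0.787 to 9.44 ± 1.94 FPM (limma adjusted p = 0.00435). The call of SERPINB9 was lost at 0.48 without both PBS 2 and LPA 3, and by DESeq2 (adjusted p = 0.164). ANXA2, which binds SLPI on macrophages, was at 181 and 165 FPM and did not pass. On rescaled FPM the same 2 genes were higher and 3, ANXA2, GRN and PLSCR1, were lower. The nearest tested genes on either side of SLPI were SDC4, a heparan sulfate proteoglycan, and WFDC12, another WAP gene, 70.7 and 128 kb away. SDC4 fell from 13.6 to 9.31 FPM (limma adjusted p = 0.00658), a call lost at -0.41 without LPA 2. WFDC12 was at 1.87 and 2.88 FPM and did not pass.

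**Figure D3:**
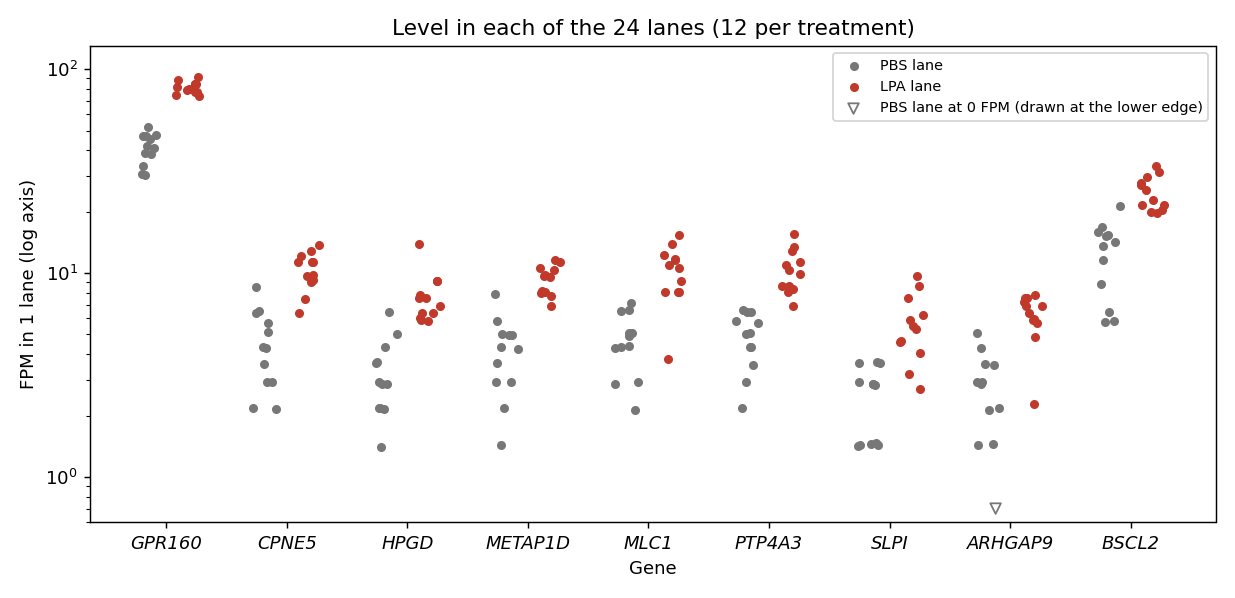
FPM in each of the 12 PBS lanes (grey) and 12 LPA lanes (red) of the 9 genes, on a log axis; the open triangle is the PBS lane of ARHGAP9 at 0 FPM, drawn at the lower edge. The lanes of the treatments do not overlap for GPR160 and PTP4A3 and 7 of 12 LPA lanes of HPGD, the fewest of the 9, lie above every PBS lane.

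Lanes of 1 library repeat the same material, so they show counting error and not biological spread. Within libraries the lanes of 8 genes differed by about what counting gives, with chi-square per degree of freedom between 0.707 for METAP1D and 1.13 for GPR160, and that of BSCL2 was 1.57. Taking 1 lane number at a time, with 3 libraries against 3, the libraries of the treatments were apart in all 4 lane numbers for GPR160, CPNE5, METAP1D and PTP4A3. They were apart in 3 for HPGD, MLC1, ARHGAP9 and BSCL2 and in 2 for SLPI. The lanes make up the library means that chose the members, and the share over all tested genes was not computed. Nothing is therefore read from these counts. Over the lane numbers the ratio of mean FPM ran from 1.78 to 2.28 for GPR160, from 1.5 to 2.51 for BSCL2 and from 1.75 to 4.05 for ARHGAP9.

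The related genes of all 9 lists together numbered 171, of which 137 were tested, with 40 called higher (29.2%) and 3 lower (2.19%). Over all tested genes these shares were 22.5% and 4.49%. The median log2 fold change of the related genes was 0.16, beside 0.13 over all tested genes, and 2 had a ratio of at least 1.98. By DESeq2 on recovered reads 6 were higher and 9 lower, beside 802 and 943 of all 16274 tested genes. On rescaled FPM 17 were higher and 14 lower, beside 9.62% and 9.45% of all tested genes. The 23 genes that overlap the 9 or are the nearest tested gene on a side, up to 766 kb away, held 5 called higher (21.7%). Of the rest 3 were lower and 15 not called, and the median of the 23 was 0.15. These shares are descriptions of the lists and were not tested against other genes.

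**Figure D4:**
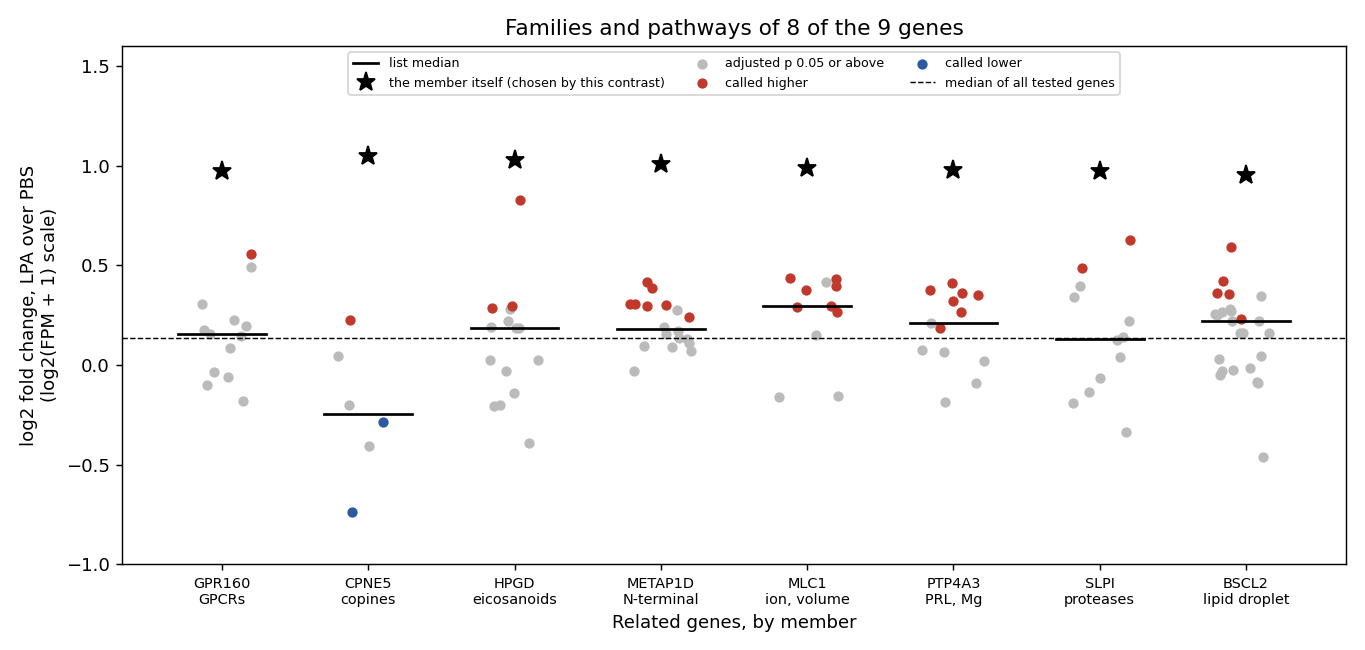
log2 fold change (LPA over PBS, log2(FPM + 1)) for the tested genes of 8 related lists (points, red called higher, blue called lower, grey not called), with the list median (bar), the member itself (star) and the median of all tested genes (dashed, 0.13). List medians lie between -0.24 for the copines and 0.30 for the MLC1 list, all below the members, which were chosen for this difference.

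Among the PBS libraries PBS 3 was the lowest for 7 of the 9 genes and PBS 1 for 2, HPGD and MLC1, and PBS 2 for 0. Over all tested genes PBS 3 was the lowest for 36.9%, PBS 1 for 41.9% and PBS 2 for 21.3%. The ratios that chose the members use these same PBS values, so nothing is read from the 7 of 9. Without PBS 3 the log2 fold changes of those 7 were lower, the lowest being 0.74 for BSCL2, while HPGD and MLC1 were then at 1.14 and 1.04. These directions follow from the PBS values left out. For each member, between 1076 and 2240 of 12031 or 12032 other genes with a mean of at least 5 FPM had a Pearson r above 0.9 to it over the 6 libraries, and the points fall into the 2 treatments. The 2 most alike genes were EDNRB and ATIC for GPR160, ALG5 and KDELR1 for CPNE5, BPNT1 and ABRAXAS1 for HPGD and SNAP23 and EPM2AIP1 for MLC1. They were LINC00298 and HDDC2 for PTP4A3, BNIP2 and ZMYND11 for SLPI, RNFT2 and MYCL for ARHGAP9 and PSMC3 and SRP68 for BSCL2. For METAP1D they were CDC6 (r = 0.997) and MYC (r = 0.995), and MYC was at 7.07 ± 1.74 and 14.1 ± 0.706 FPM. These 18 values of r lay between 0.994 and 1.00, over 6 libraries in 2 groups and among many genes, and are a description with no test.

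The choice can be placed in the ranking it came from. Among genes called higher with at least 5 FPM with LPA and libraries that did not overlap, the 9 were among the 12 with the highest log2 fold change, from CPNE5 at rank 2 (1.05) to BSCL2 at rank 12 (0.95). The other 3 were BCYRN1, ABHD14A and IL13RA1 at ranks 1, 8 and 11, with 1.14, 0.97 and 0.96. Just outside lay PINK1-AS at rank 13 (0.95), SDC1 at 14 (0.95) and EDNRB at 15 (0.93), so no gap separates the 9 from the next genes. SDC1, the plasma cell proteoglycan, was at 60.7 and 118 FPM.

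How large the differences look depends on the scale. On rescaled FPM the ratio ran from 1.79 for GPR160 to 2.10 for HPGD, and the log2 fold change from 0.81 for BSCL2 to 0.92 for CPNE5. A pseudocount of 4 FPM in place of 1 gave between 0.59 for SLPI and 0.92 for GPR160. Ranked by fold change among the 12079 tested genes at 5 FPM with LPA, GPR160 then moved from rank 15 to rank 3, while SLPI moved from 13 to 133 and ARHGAP9 from 16 to 99. By edgeR's fold changes on recovered reads GPR160 was at rank 22, BSCL2 at 27 and ARHGAP9 at 9. Over all settings the log2 fold changes, whose sign the choice of the genes largely fixed, ran from 0.54 for BSCL2 in lane 3 alone to 1.48 for ARHGAP9 in the same lane.

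**Figure D5:**
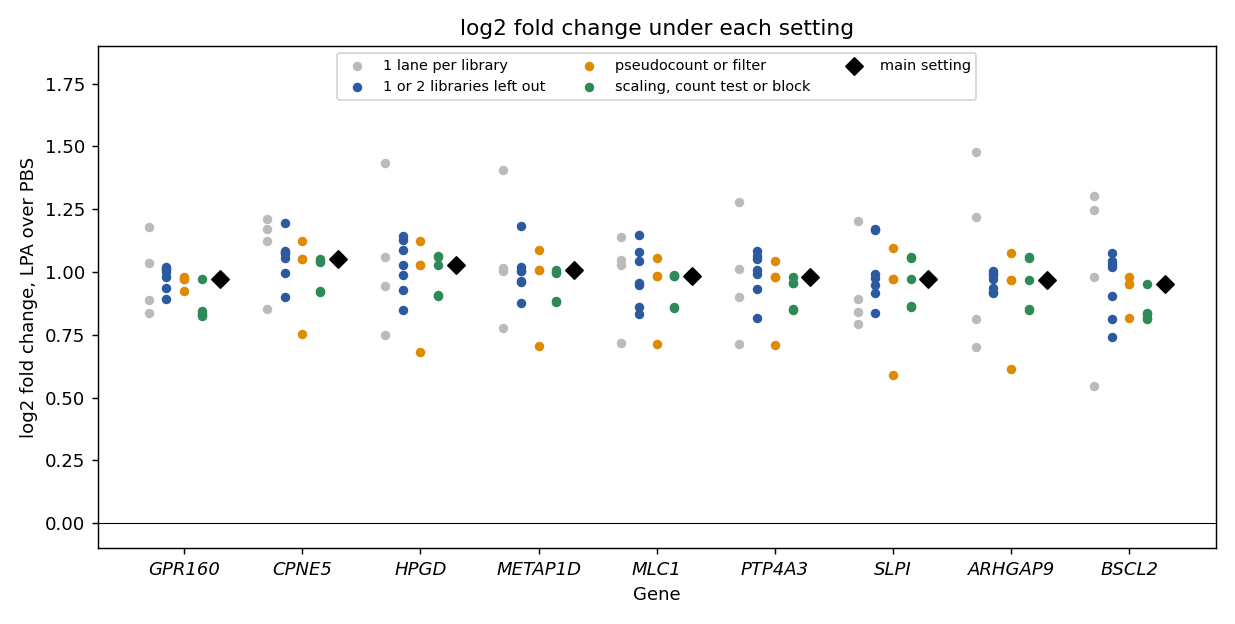
log2 fold change of LPA over PBS for the 9 genes under the main setting (black) and under each alternative (colours by kind). Values lie between 0.54 and 1.48, and both ends come from 1 lane per library; the lowest values of SLPI and ARHGAP9 come from a pseudocount of 4 FPM.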

How the data were processed

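The deposited values are FPM, a form of CPM, in 24 lane columns of 1 table made by the authors; treatment labels gave the groups, and titles the library and lane. No source names the aligner, counter, strand setting or annotation. Per the submitters' processing notes the build is mm10, yet the gene identifiers are human, so GENCODE 29 served only for gene order, overlaps, chromosomes and exon lengths. Of 19345 rows 187 repeats were dropped, and 1 blank line was left out. Within 0.02 reads, 100% of values were whole reads, which were recovered. On these reads edgeR 4.0.16 called 1679 genes higher and 1569 lower. Intervals on pooled reads are exact (Clopper-Pearson, 95%) and cover counting error only. They make no allowance for the choice of the genes by their ratios.

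Lanes were averaged per library. limma 3.58.1 (trend, robust, two-sided) ran on log2(FPM + 1), which understates changes of low genes, with Benjamini-Hochberg adjustment over 16274 genes at 0.05. Alternatives were other scalings, pseudocounts and filters, edgeR, DESeq2 1.42.0, a replicate block, left-out libraries and single lanes. Tested on simulated data with 2-fold changes in 200 of 16274 genes, limma recovered 100% with 12 false calls. The 200 were drawn from genes of at least 5 FPM with PBS, with no shift between the groups. Recovery at the lower PBS level of most members was therefore not tested. The members and lists were chosen with earlier results of these data known. Named were the members, the 3 smallest p per list, overlapping and nearest tested genes, the 2 most alike genes and genes ranked beside the members. The list of genes related to ARHGAP9 and 1 gene of another list are counted in the totals and not otherwise reported here.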

Additional observations from a re-analysis of the deposited data

How the results depend on the processing

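In 151 of 180 combinations of the 9 genes and an alternative, the fold change moved by less than 1 SD of the replicates. Other filters and the replicate block cannot change a difference of group means, so for every gene they gave the main value. Their part of the 151 was thus fixed in advance, and the count is no test of stability. No fold change turned negative, which the choice of the genes largely fixed. Over all genes 3666 were called higher and 731 lower. Rescaled by median of ratios these were 1566 and 1538, by TMM 1627 and 1507, by edgeR 1679 and 1569, and by DESeq2 802 and 943. Related genes called higher went from 40 to 17, 18, 20 and 6 in those settings, and those called lower went from 3 to 14, 13, 13 and 9. Neighbouring genes called higher went from 5 to 3, 3, 3 and 2. Median of ratios and TMM change only the scaling, whereas edgeR and DESeq2 also change the model and use reads. With 1 lane per library (lanes 1 to 4) all genes called higher were 1266, 1270, 1213 and 1229 and lower 288, 295, 289 and 265. Related genes called higher were then 13, 12, 12 and 12, and lower 1 in lanes 1, 3 and 4; neighbouring genes higher were 2, 2, 2 and 1, and lower 1 in lanes 1, 2 and 4. A single lane holds fewer reads. Leaving out 1 library gave 2463 to 4487 genes higher and 543 to 714 lower, 27 to 48 related genes higher and 3 to 4 lower, and 3 to 7 neighbouring genes higher, with 3 without PBS 1, PBS 3 or LPA 3, and 2 to 3 lower. Without both PBS 2 and LPA 3, chosen after the data were seen, 7 related genes were lower; the cause was not tested. The replicate numbers did not pair the libraries (correlations of deviations -0.01, -0.04 and -0.05), and with the replicate block 3339 genes were higher, 720 lower and 37 related genes higher. For 7 of the 9 genes the PBS group held 41 to 81 reads, which sets the counting intervals given.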
